A study of Mus musculus with 18 samples.

Results

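The genes examined here encode proteins of the synapse, namely the machinery that stores and releases synaptic vesicles and the receptors and scaffolds that receive the transmitter. The list held 32 named genes, 17 presynaptic and 15 postsynaptic. They were chosen by name for their known roles, but with earlier results of these data known. Of these, 29 had a probe set that named no other gene, out of 18194 such genes on the array. Each gene was read from the brightest of its probe sets by mean over 18 arrays, and 27 of the 29 (15 presynaptic and 12 postsynaptic) were bright enough to be tested among 11630 genes. Unc13a and Rims1 stayed below that filter, a mean log2 value of 2.49 over all arrays, and a value under it is called near the floor. Grin1, Gabbr2 and Shank2 are not analysed here.

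The RNA came from GFP-positive cells, sorted as microglia through a Cx3cr1 reporter from hippocampi of C57BL/6 mouse embryos at E17.5 and pooled for each pregnant dam. The 4 groups were embryos whose dams received lipopolysaccharide (LPS, an endotoxin of bacteria used to provoke inflammation, 4 arrays), embryos whose dams received PBS (4 arrays), untreated embryos mutant for DAP12 (DAP12KO, DAP12-/-, 4 arrays) and untreated wild-type embryos (UT, 6 arrays). DAP12, encoded by Tyrobp, is a signalling adaptor of microglia. The labels carry 4 different years, numbered here 1 to 4 in order of time, and do not say what a year marks. LPS and PBS have 1 array each in year 1, 2 each in year 2 and 1 each in year 4, DAP12KO has 4 in year 4, and UT has 2 in year 3 and 4 in year 4. The Cx3cr1 reporter is also carried by other macrophages. Each array holds a pool, and no label says which dams the pools of 1 group came from, so p-values measure the spread between these arrays. The LPS array of year 4 is numbered 3_2 and that of year 1 is numbered 3, and no label says whether the first repeats the second. They were counted as separate samples, and the LPS group would hold 3 rather than 4 if they are 1. Between them Pearson's r was 0.877 over probe sets, against 0.905 between the PBS arrays of the same years and 0.984 between the LPS arrays of year 2.

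At a chemical synapse, an action potential lets calcium into the nerve terminal, synaptotagmins sense it, and SNARE proteins pull a docked vesicle into the plasma membrane. Scaffolds of the active zone hold vesicles and calcium channels in place, and ionotropic receptors anchored by postsynaptic scaffolds turn the released transmitter into a current. These genes are known chiefly from neurons, whereas microglia are known to contact, engulf and trim synapses.

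Microglia markers were bright on all arrays. The mean log2 value of 20 microglia markers was 12.79 to 13.69 in LPS arrays against 11.76 to 13.60 in PBS arrays, and 13.61 to 13.84 in DAP12KO arrays against 13.58 to 13.77 in UT arrays. None of the 20 was near the floor on any array. Neuron markers that are on no synapse list were also present, with a mean of 20 genes of 7.38 to 9.80 in LPS arrays against 7.89 to 11.27 in PBS arrays, and 7.12 to 7.84 in DAP12KO arrays against 6.6 to 8.43 in UT arrays. Of these 20, the neurofilament genes Nefl and Nefm were near the floor on 14 and 12 of the 18 arrays, and Tubb3, Map2 and Dcx on 0. The 2 PBS arrays of year 2 stood apart, with neuron markers at 11.18 and 11.27 against at most 9.80 elsewhere, and microglia markers at 11.76 and 11.94 against at least 12.79 elsewhere. Their 12 markers of radial glia and other neural progenitors (11.25 and 11.29, where other arrays reached 9.23) were the highest too. Of 5 oligodendrocyte lineage markers on the array, 2 passed the filter, Pdgfra and Olig1, and their mean was 7.26 and 5.58 on these arrays, against at most 2.86 elsewhere, while Sox10 was near the floor on all 18. Gapdh probe sets of the 3′ and 5′ ends, a sign of RNA integrity, differed by 2.01 to 3.33 (log2) on the arrays of year 1 and year 2, by 1.31 and 2.77 on the UT arrays of year 3, and by 0.89 to 1.2 on those of year 4 other than UT replicate 2 (2.23). Tyrobp itself read 13.80, 13.83, 13.75 and 14.23 in DAP12KO arrays, against 14.29 to 14.55 in UT arrays, a difference of −0.60 ± 0.13 (SE) that missed the threshold (limma, adjusted p = 0.30). Which part of Tyrobp the mutation removes is not stated in the labels, so this probe set does not check the genotype. In bulk RNA such as this, fewer cells of a type and less RNA per cell cannot be told apart.

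The 250 bases before the annotated start (RefSeq, GRCm38.p6) are shown for the 3 members with the lowest p between LPS and PBS, Chrna7 (chr7:63212527-63212776, minus strand), Gabra4 (chr5:71658309-71658558, minus strand) and Cplx2 (chr13:54302306-54302555, plus strand). Those of Syn1 (chrX:20920919-20921168, minus strand) and Gria2 (chr3:80802836-80803085, minus strand) are shown for the motifs they hold. Each runs 5′ to 3′ along the gene. Capitals mark GC boxes in the first pair, none in Cplx2, a pair of left half-sites and a cAMP response element in Syn1, and a right half-site on the opposite strand in Gria2.
Chrna7: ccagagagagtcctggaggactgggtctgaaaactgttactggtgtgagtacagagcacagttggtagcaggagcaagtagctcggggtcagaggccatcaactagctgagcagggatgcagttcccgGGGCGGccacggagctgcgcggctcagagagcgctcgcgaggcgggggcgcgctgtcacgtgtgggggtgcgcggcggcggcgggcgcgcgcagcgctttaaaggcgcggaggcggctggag
Gabra4: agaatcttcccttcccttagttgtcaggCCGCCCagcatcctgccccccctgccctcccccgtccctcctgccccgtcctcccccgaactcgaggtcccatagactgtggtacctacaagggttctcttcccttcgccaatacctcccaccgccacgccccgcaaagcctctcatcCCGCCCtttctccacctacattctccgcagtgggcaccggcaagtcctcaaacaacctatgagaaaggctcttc
Cplx2: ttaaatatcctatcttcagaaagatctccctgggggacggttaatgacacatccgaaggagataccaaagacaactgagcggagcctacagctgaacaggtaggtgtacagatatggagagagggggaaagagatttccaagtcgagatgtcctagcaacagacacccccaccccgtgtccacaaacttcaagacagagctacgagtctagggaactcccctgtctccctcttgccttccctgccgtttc
Syn1: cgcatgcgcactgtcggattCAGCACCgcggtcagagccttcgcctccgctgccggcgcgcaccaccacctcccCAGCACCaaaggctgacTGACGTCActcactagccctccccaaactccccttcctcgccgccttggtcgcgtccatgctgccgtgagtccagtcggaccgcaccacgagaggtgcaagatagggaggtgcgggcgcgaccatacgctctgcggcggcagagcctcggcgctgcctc
Gria2: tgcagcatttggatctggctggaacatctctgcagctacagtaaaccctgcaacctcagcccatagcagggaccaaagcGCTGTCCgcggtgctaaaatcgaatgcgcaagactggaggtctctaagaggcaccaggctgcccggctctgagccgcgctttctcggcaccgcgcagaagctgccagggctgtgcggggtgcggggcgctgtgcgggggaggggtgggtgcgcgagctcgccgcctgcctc

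The motifs were searched on both strands from 250 bases before to 50 after the start, and none of them contains another. They were the left (CAGCACC) and right (GGACAGC) half-sites of RE1, through which the repressor REST silences neuronal genes outside neurons, the cAMP response element (TGACGTCA), the site of the myeloid factor PU.1 (GAGGAAGT) and the GC box (GGGCGG), the last added after the others had been searched. The RefSeq table held such windows for 24 of the 32 listed genes. These genes had 30 windows, some with more than 1 annotated start. The left half-site was found in 4 of the 30 windows (Unc13a, Syn1, Nlgn1 and Dlg4), against 7.14% of all 32851 windows, and the right half-site in 2 (Unc13a and Gria2), against 6.56%. Syn1 had the only cAMP response element (1.79% of all windows), and the PU.1 letters were in 0 of the 30 (3.20% of all windows). A GC box was in 17 of the 30 windows, those of Chrna7 and Gabra4 among them, against 35.7% of all windows. These matches describe letters, not binding.

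The level of the synaptic genes differed widely between arrays. The median log2 value of the 27 tested members was 5.40 (year 1), 6.95 and 7.28 (year 2) and 4.67 (year 4) on LPS arrays, against 5.76 (year 1), 8.72 and 8.70 (year 2) and 5.55 (year 4) on PBS arrays. It was 4.02 to 4.97 on DAP12KO arrays against 4.02 to 6.35 on UT arrays. The highest medians were thus those of the PBS arrays of year 2, and the heat map of all 29 genes shows these as 2 bright columns. In 17 of the 27 members those 2 arrays held the 2 highest values of all 18 (63.0%), where 12.2% of all tested genes showed the same. Among the 17 are Pclo, Gria4 and Gabra4, which passed the filter only through the PBS arrays, so this share is in part set by the filter. Of the 29 genes, 17 were above the near-floor threshold on all arrays and 6 were near the floor on more than 9 arrays (Unc13a, Rims1, Pclo, Gria4, Gabra4 and Chrna7). A value above the threshold does not by itself show that a gene was detected. Some of the first 17 had the same value on several arrays, such as Syt4 (5.76), Cplx1 (4.02) and Snap91 (3.34). What such ties mark was not tested.

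**Figure D1:**
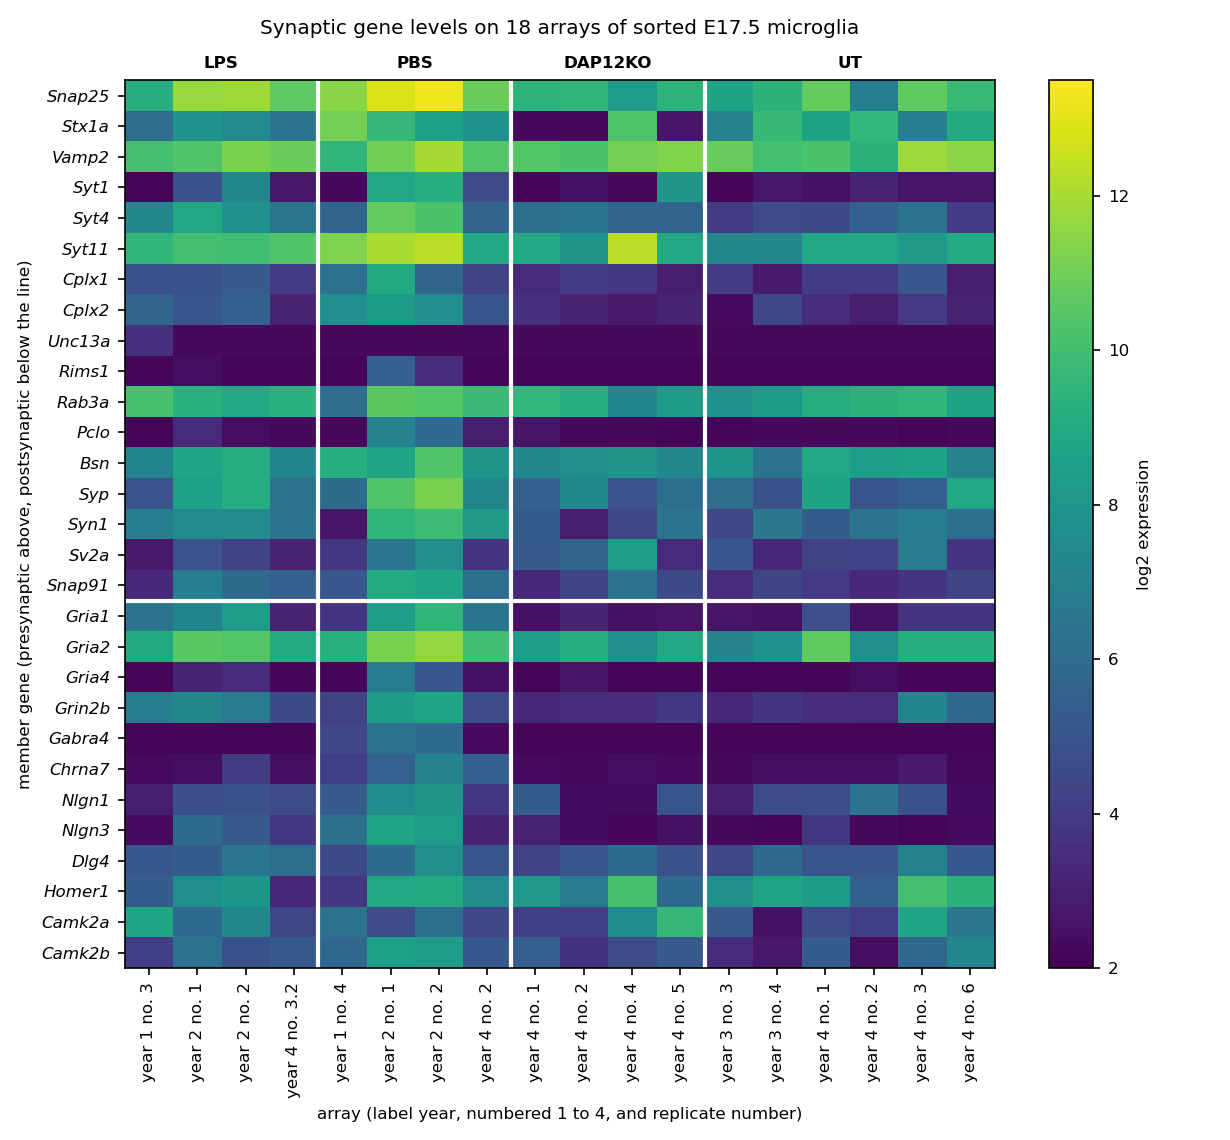
Log2 expression (colour) of the 29 synaptic genes with a probe set, presynaptic genes above the white line and postsynaptic genes below it, on the arrays of the LPS, PBS, DAP12KO and UT groups, each with its label year and replicate number. The 2 PBS arrays of year 2 are brightest in most rows, and Snap25, Vamp2, Syt11, Rab3a, Bsn and Gria2 are visible on all 18 arrays.

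**Figure D2:**
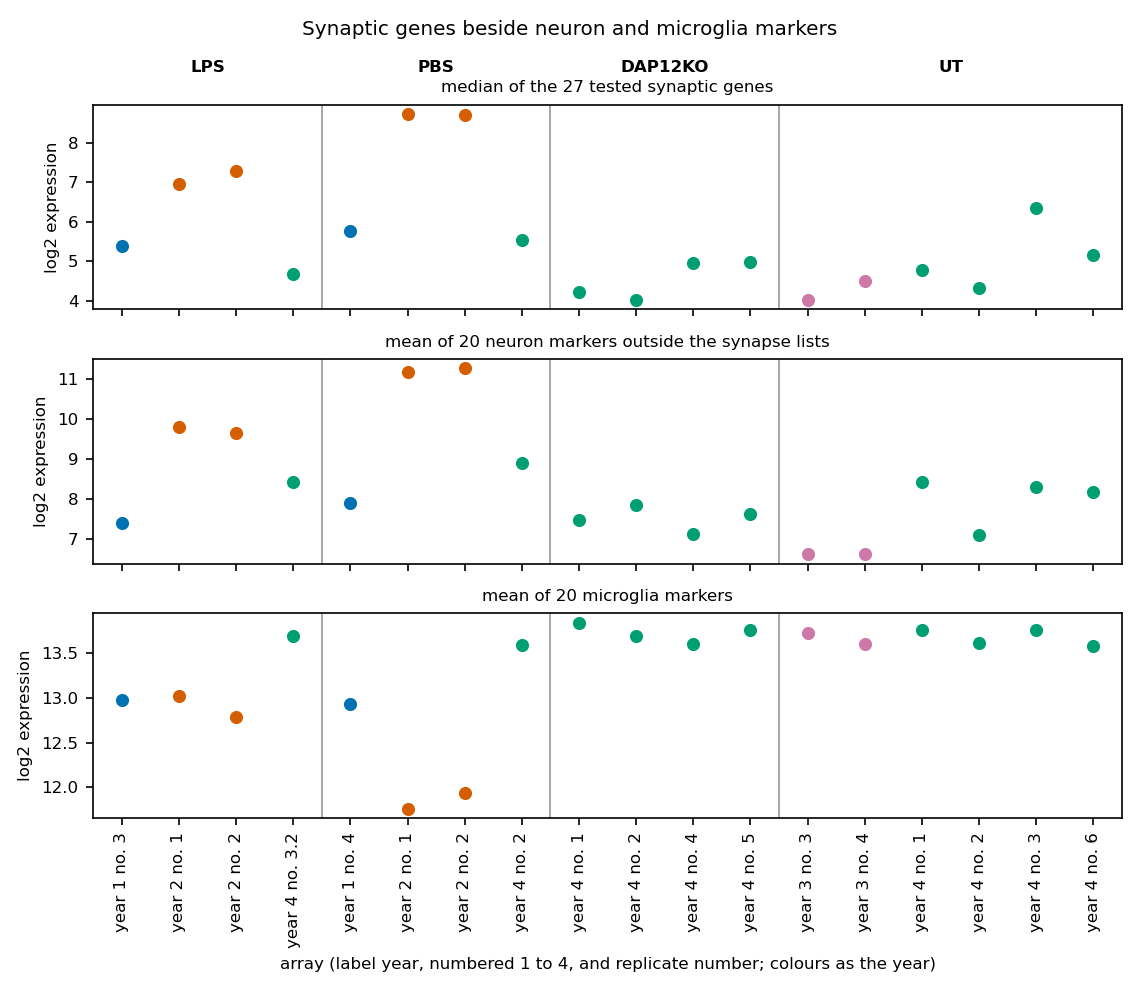
Median log2 expression of the 27 tested synaptic genes (top), mean of 20 neuron markers outside the synapse lists (middle) and mean of 20 microglia markers (bottom) on each array, with points coloured by label year and groups parted by grey lines. The PBS arrays of year 2 have the highest synaptic and neuron values (8.72 and 8.70, 11.18 and 11.27) and the lowest microglia values (11.76 and 11.94).

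Among the SNARE proteins, Snap25, a target-membrane SNARE, was well above the floor on every array. It read 9.18, 11.74, 11.88 and 10.64 on LPS arrays (in order of year, with both of year 2), against 11.47, 12.91, 13.25 and 10.92 on PBS arrays. Each LPS array was below the PBS mean of its year, while the groups overlapped, and the fitted difference was −1.28 ± 0.66 (SE, adjusted p = 0.44). Vamp2, the vesicle SNARE, had group means of 10.64 ± 0.48 with LPS against 10.75 ± 1.00 with PBS, and 10.77 ± 0.51 in DAP12KO (SD, n = 4 each) against 10.64 ± 0.92 in UT arrays (SD, n = 6). Stx1a, the partner of Snap25 on the target membrane, read 6.09, 7.91, 7.44 and 6.44 with LPS, against 11.10, 9.67, 8.55 and 7.92 with PBS. No LPS value reached the lowest PBS value, but the nearest were 7.91 (LPS, year 2) and 7.92 (PBS, year 4). The difference of −2.34 ± 1.44 did not pass (adjusted p = 0.53). This Stx1a probe set is of a kind whose probes can match other transcripts, and the gene's second probe set was near the floor on 15 arrays.

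The synaptotagmins were uneven. Syt1, the fast calcium sensor, was at 2.19, 4.91, 7.28 and 2.73 with LPS, against 2.29, 8.90, 9.28 and 4.62 with PBS, and at most 3.08 on UT arrays. It read 8.01 on DAP12KO replicate 5, where the other DAP12KO arrays had 2.19 to 2.53, but 2 other Syt1 probe sets past the filter read 2.37 and 2.19 on that array. Syt4 ranged over 6.6 to 8.86 with LPS and over 5.76 to 10.75 with PBS, and the sign of LPS minus PBS turned between years (1.54 in year 1, −2.14 in year 2, 0.84 in year 4). In Syt11, a synaptotagmin that does not bind calcium, the LPS arrays read 9.55 to 10.39 against 8.95 to 12.29 on PBS arrays, and 7.94 to 12.35 in DAP12KO against 7.22 to 9.02 in UT arrays.

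The complexins clamp and then promote SNARE fusion, and both had lower values on each LPS array than the PBS mean of the same year. Cplx2 read 5.74, 5.07, 5.53 and 3.11 with LPS, against 7.65, 8.27, 7.63 and 4.99 with PBS. The difference was −1.91 in year 1, −2.65 in year 2 and −1.87 in year 4. The other Cplx2 probe sets differed chiefly in year 2 (−3.03 and −5.01). Although the groups overlapped across years, Cplx2 had the third-lowest p among members (−2.27 ± 0.49), which did not pass after adjustment in limma (adjusted p = 0.10). Cplx1 read 4.89, 4.83, 5.30 and 4.02 with LPS, against 6.33, 8.99, 5.71 and 4.22 with PBS (−1.55 ± 0.68, adjusted p = 0.36).

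At the active zone, Pclo and Bsn encode the giant scaffolds Piccolo and Bassoon. Pclo read 2.19, 3.38, 2.45 and 2.27 with LPS, against 2.27, 7.12, 6.00 and 2.94 with PBS, so that it was clear of the floor chiefly on the PBS arrays of year 2. Its difference was −2.01 ± 0.53 (adjusted p = 0.17), and −0.37 without those 2 arrays. In the probe set used, Bsn was above the near-floor threshold on every array. It read 7.18 to 9.12 with LPS against 7.94 to 10.39 with PBS. DAP12KO arrays read 7.26 to 7.95 against 6.41 to 8.84 in UT arrays. Some of these values were tied, such as 7.18 on the LPS arrays of year 1 and year 4. The other Bsn probe sets were near the floor on 16 and 17 arrays, so they do not bear out its presence on every array. Rab3a, a GTPase on the vesicle membrane, read 10.14, 9.36, 8.96 and 9.37 with LPS, against 6.10, 10.61, 10.47 and 9.84 with PBS. It was higher with LPS in year 1 (4.05) and lower in year 2 (−1.38) and year 4 (−0.47). This probe set is of a kind whose probes can match other transcripts, and the other Rab3a probe set gave a fitted difference of the opposite sign (−0.56 against 0.20). Rims1, which links vesicles to calcium channels, exceeded the threshold only on the PBS arrays of year 2 (5.53 and 3.48). Unc13a, the priming factor Munc13-1, exceeded it only on the LPS array of year 1 (3.61).

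Of the vesicle proteins, Snap91 (AP180), which assembles clathrin on recycling vesicles, read 3.34, 6.95, 6.00 and 5.54 with LPS, against 5.14, 9.01, 8.70 and 6.14 with PBS. All LPS arrays were below the PBS mean of their year (−1.79 ± 0.61, adjusted p = 0.26). Syp (synaptophysin, an abundant vesicle membrane protein) ranged over 4.95 to 9.19 with LPS against 6.05 to 11.21 with PBS. Syn1, which tethers vesicles to actin, was 6.43 to 7.56 with LPS, against 2.70 in year 1 and 8.19 to 9.89 in the later years with PBS. LPS minus PBS was therefore positive in year 1 (4.20) and negative in year 2 (−2.21) and year 4 (−1.77). Sv2a, a vesicle glycoprotein and the target of levetiracetam, was 2.85 to 4.96 with LPS against 3.73 to 7.66 with PBS, and its highest value of all was 8.41 on DAP12KO replicate 4.

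The AMPA receptor subunits carry fast excitatory currents, and Gria2, whose edited form keeps calcium out, was the one read well above the floor on all arrays. Gria2 was at 9.0, 10.54, 10.43 and 9.04 with LPS, against 9.31, 11.17, 11.62 and 9.97 with PBS (−0.76 ± 0.52, adjusted p = 0.57). Gria1 read 6.41, 7.17, 8.31 and 3.04 with LPS, against 3.77, 8.33, 9.59 and 6.46 with PBS. It was at 2.53 to 3.16 in DAP12KO and at 2.53 to 4.83 in UT arrays. Gria4 left the floor in earnest only in year 2, with 3.10 and 3.39 with LPS against 6.85 and 5.14 with PBS (over all years −1.46 ± 0.48, adjusted p = 0.23). Grin2b, the NMDA receptor subunit that predominates before birth, ranged over 4.54 to 7.29 with LPS against 4.21 to 8.82 with PBS, and over 3.28 to 3.87 in DAP12KO against 3.28 to 7.21 in UT arrays.

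Chrna7 and Gabra4 had the 2 lowest p-values among members between LPS and PBS. Chrna7, the α7 subunit of nicotinic acetylcholine receptors, is also known from macrophages, where its activation dampens cytokine release. It read 2.35, 2.43, 4.06 and 2.41 with LPS, against 4.14, 5.62, 7.14 and 5.55 with PBS. Every LPS value lay below every PBS value, and LPS arrays were lower in each year (−1.78, −3.14 and −3.14 in year 1, year 2 and year 4). DAP12KO arrays read 2.24 to 2.41, against 2.24 to 2.82 in UT arrays, so that only the PBS arrays and 1 LPS array of year 2 were well clear of the floor. The fitted difference between LPS and PBS arrays was −2.80 ± 0.43 (SE) on the log2 scale. Since 3 of the 4 LPS values were near the floor, this is no measured fold. With values near the floor set to the threshold it was −2.73. Chrna7 was the 1 member past the threshold (limma, adjusted p = 0.034). This call was lost without the PBS arrays of year 2 (−2.46, adjusted p = 0.12) and in 7 of 13 alternative settings other than leaving out 1 array. With 1 array left out in turn it was lost in 12 of 18 cases: each of the 4 LPS and PBS arrays of year 2, each of the 6 UT arrays, and DAP12KO replicates 2 and 4. Over all 31 settings the adjusted p ranged from 0.0012 to 0.45. The call held without the LPS array of year 4 (−2.69, adjusted p = 0.023) and without that of year 1 (−3.14, adjusted p = 0.007). A second Chrna7 probe set read 2.19, 4.85, 3.23 and 2.19 with LPS, against 2.19, 7.89, 7.06 and 2.19 with PBS, and thus differed in year 2 alone.

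Gabra4 encodes the α4 subunit of GABA-A receptors, found largely outside synapses. All 4 LPS arrays were at the lowest value of 2.19, against 4.47, 6.32, 6.04 and 2.33 on PBS arrays, and all DAP12KO and UT arrays were at 2.19 as well. The fitted difference was −2.60 ± 0.48 (adjusted p = 0.056). Since the LPS group held no value above the threshold, this is no measured fold, and with values near the floor set to the threshold it was −2.34. Without the PBS arrays of year 2 it was −1.21 (adjusted p = 0.23). Gabra4 passed the threshold in 6 of 30 alternative settings, namely with the replicate block (−2.66, adjusted p = 0.040), with array weights, and on leaving out either array of year 1 or either LPS or PBS array of year 4. Over all 30 the adjusted p ranged from 0.00033 to 0.47.

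The neuroligins, adhesion proteins that bind presynaptic neurexins, were highest on the PBS arrays of year 2. Nlgn3 read 2.32, 6.02, 5.29 and 3.87 with LPS, against 6.23, 8.72, 8.35 and 3.13 with PBS. LPS arrays were lower in year 1 and year 2 and higher in year 4 (0.74), with a fitted difference of −2.23 ± 0.62 (adjusted p = 0.17). Nlgn1 ranged over 2.99 to 4.84 with LPS and over 3.84 to 8.0 with PBS (−1.87 ± 0.93, adjusted p = 0.42).

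Among the postsynaptic scaffolds and kinases, Dlg4 (PSD-95) was 5.17 to 6.52 with LPS against 4.60 to 7.69 with PBS, and LPS minus PBS was positive in year 1 and year 4. Homer1, which ties metabotropic receptors to the postsynaptic density, was 3.32 to 8.04 with LPS against 3.84 to 8.97 with PBS. Its highest values were 10.15 on DAP12KO replicate 4 and 10.09 on a UT array. Camk2a, a subunit of the kinase needed for synaptic potentiation, had a mean of 6.64 ± 1.83 with LPS against 5.42 ± 0.97 with PBS (SD, n = 4 each), a difference of 1.22 ± 1.25 (adjusted p = 0.74). Its sister subunit Camk2b read 4.15 to 6.35 with LPS against 5.17 to 8.48 with PBS (−1.81 ± 0.86, adjusted p = 0.40).

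**Figure D3:**
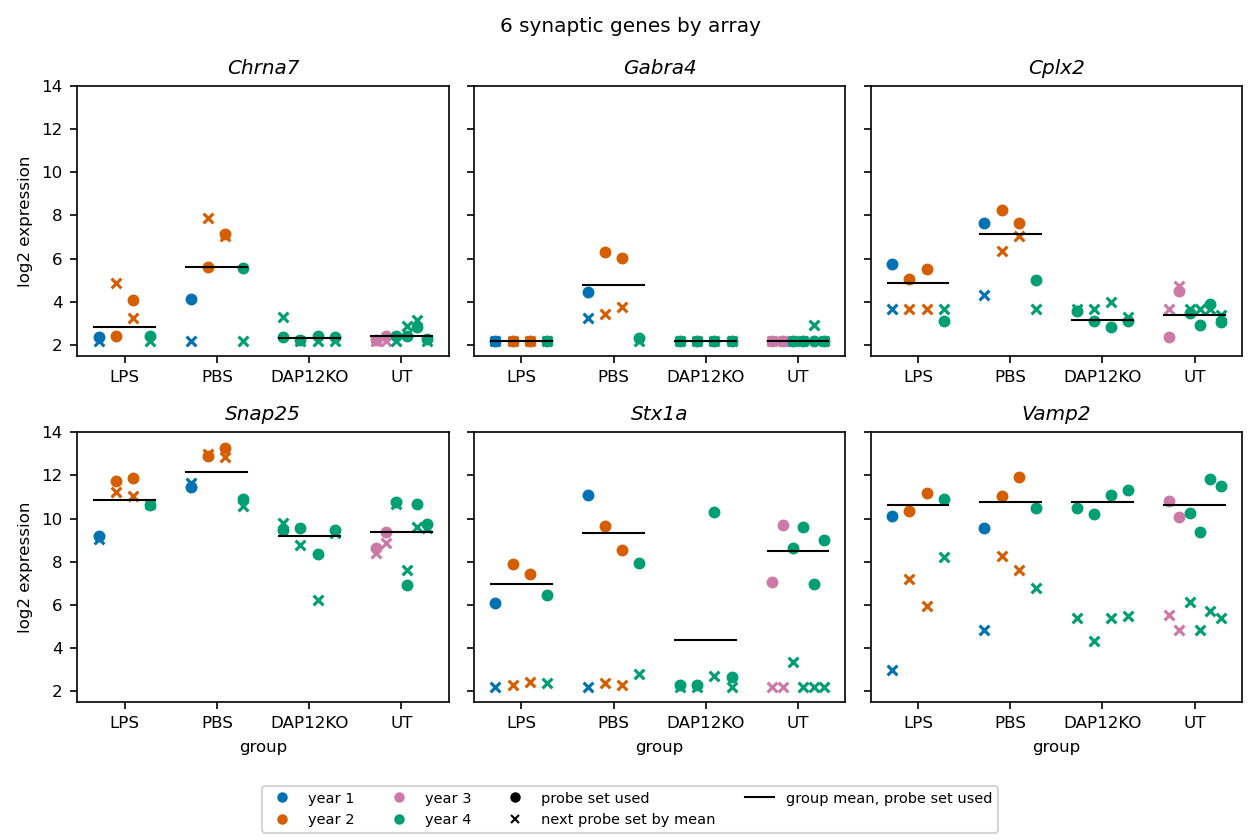
Log2 expression of Chrna7, Gabra4, Cplx2, Snap25, Stx1a and Vamp2 on each array by group, coloured by label year, with circles for the probe set used, crosses for the next probe set of the gene by mean, and bars for group means of the probe set used. Every LPS circle of Chrna7 lies below every PBS circle, the Gabra4 circles leave 2.19 in the PBS group only, while a Gabra4 cross does so on 1 UT array (2.90), and 3 of the 4 DAP12KO circles of Stx1a are near the bottom.

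Taken as a list, most synaptic genes read lower with LPS. Of the 27 tested members, 25 had a fitted difference below 0 (all but Rab3a and Camk2a, the first with its other probe set below 0), where 57.5% of all tested genes did, and the median was −1.46 against −0.12 over all tested genes. At an unadjusted p under 0.05 in limma, 8 members were lower and 0 higher, that is 29.6% lower, against 8.98% lower and 3.47% higher of all tested genes. The 8 were Cplx1, Cplx2, Pclo, Snap91, Gria4, Gabra4, Chrna7 and Nlgn3. Of these, Pclo, Gria4 and Gabra4 passed the filter only through the PBS arrays (means of 2.37, 2.39 and 2.19 over the other 14), so they had to be higher there. Among the 24 members that passed with any 1 group left out, 5 were lower at that p (20.8%), against 7.71% of 11001 such genes. The median of these 24 members was −1.22, with 22 below 0, against 57% of such genes. After adjustment 1 of 27 was left, where 11 of 11630 genes passed (0.0946%), 10 of them lower (0.086%). In 13 members (48.1%) every LPS array lay below the PBS mean of its year, against 12.3% of all tested genes, and 10 of these 13 were presynaptic. Pclo and Gabra4, which had to be higher on PBS arrays, are among the 13, so this share is in part set by the filter. Syt1 and Pclo in year 1 and Gabra4 in year 4 met this condition only through differences between values near the floor. The groups did not overlap in Stx1a, Gabra4 and Chrna7, all lower with LPS, against 1.36% of all tested genes, and 0 members lay wholly above PBS, against 0.602%. Here too Gabra4 had passed the filter only through the PBS arrays, and in Stx1a the nearest values were 7.91 (LPS) and 7.92 (PBS).

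The median difference was −1.49 for 15 presynaptic and −1.31 for 12 postsynaptic genes. The presynaptic medians were −1.10 in year 1, −2.14 in year 2 and −0.61 in year 4, and the postsynaptic medians −0.16, −2.14 and −0.11, a contrast that was not tested. Lower values with LPS were found for 17 members in year 1, 26 in year 2 and 20 in year 4, and the members' median was −0.98, −2.14 and −0.47 in these years. Of all 11630 tested genes, 5596, 6581 and 6281 were lower in year 1, year 2 and year 4, with medians of 0, −0.11 and −0.06. The neuron markers moved the same way in each year (−0.51 in year 1, −1.50 in year 2, −0.49 in year 4), with 19 of 20 lower with LPS in the fit, and 20 of 20 microglia markers were higher. Their part in the synaptic result was not tested. Without the PBS arrays of year 2 the members' median was −0.80, with 3 members at an unadjusted p under 0.05 and 0 past the threshold. The share of all genes at that p without these arrays is not given here.

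**Figure D4:**
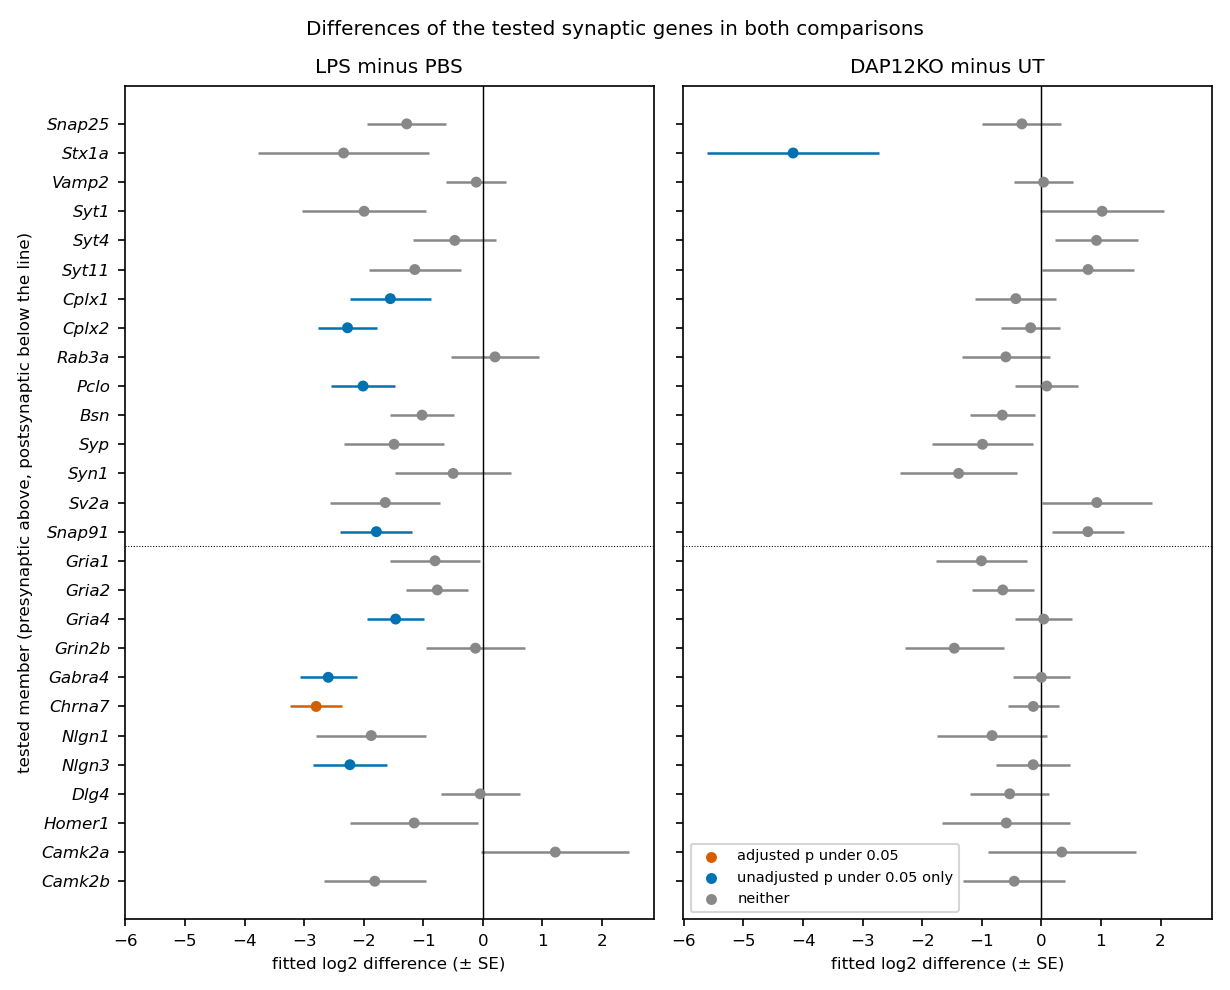
Fitted log2 differences (points) with standard errors (bars) of the 27 tested members for LPS minus PBS (left) and DAP12KO minus UT (right), presynaptic genes above the dotted line. On the left 25 points lie below 0 and Chrna7 (orange) passes the threshold, while on the right the points lie on both sides and Stx1a (−4.17) stands apart.

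**Figure D5:**
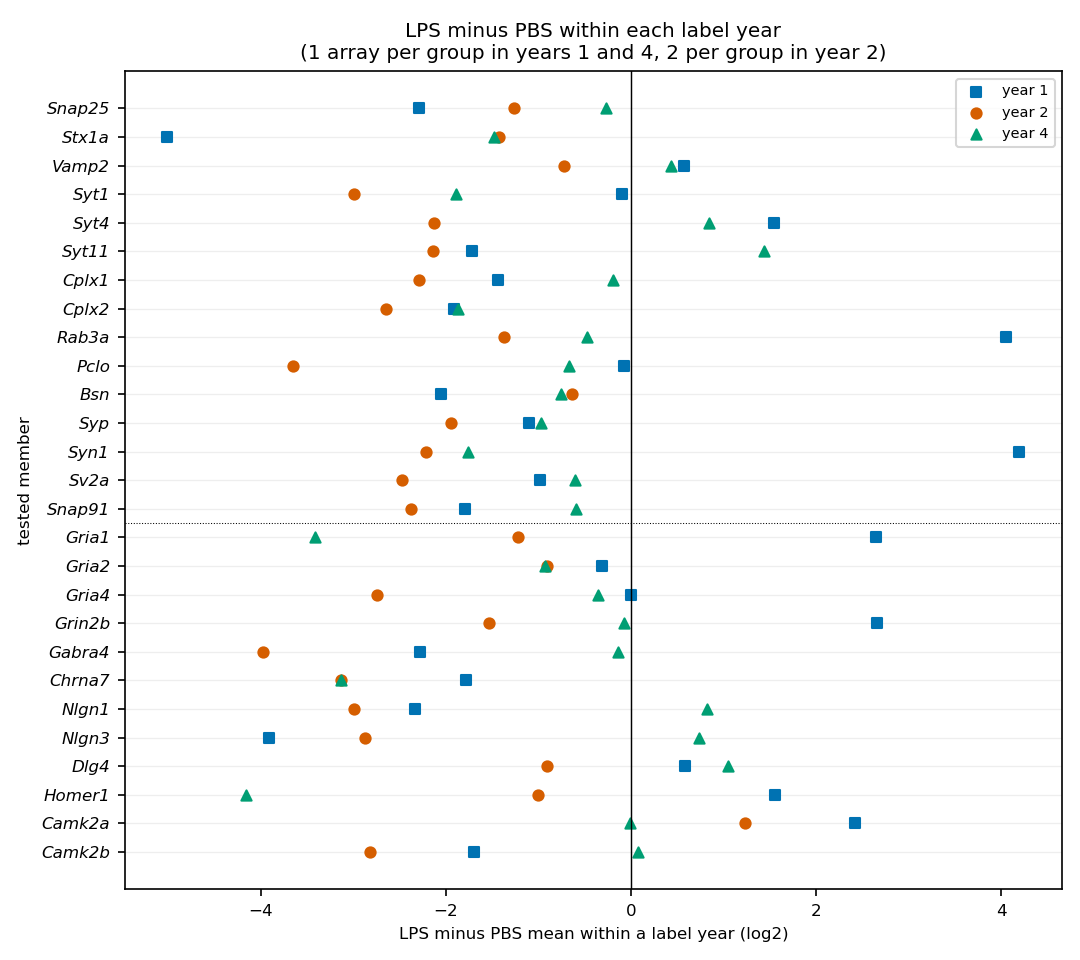
LPS minus PBS (log2) of the 27 tested members within year 1 (squares, 1 array per group), year 2 (circles, 2 per group) and year 4 (triangles, 1 per group), presynaptic genes above the dotted line. In year 2, 26 of 27 points lie below 0, while Rab3a, Syn1, Gria1, Grin2b and Camk2a lie above 2 in year 1.

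Between DAP12KO and UT embryos the synaptic genes differed in both directions. Of the 27 members 17 were below 0 and 9 above, where 47.5% of all tested genes were below 0, and the median difference was −0.33 against 0.02 over all tested genes. Of the presynaptic genes 8 were below 0 and 7 above (median −0.18), and of the postsynaptic genes 9 and 2 (75%, median −0.49), a contrast that was not tested. No member passed the threshold, and neither did any of the 11630 genes (0%). At an unadjusted p under 0.05 in limma there was 1 lower member and 0 higher, against 2.5% and 2.98% of all tested genes. In no member did the 2 groups separate fully, against 0.576% of all tested genes with DAP12KO lower and 0.224% with DAP12KO higher. In the probe sets used, the 3 synaptotagmins had positive differences (0.78 to 1.02) and the complexins negative ones (−0.43 and −0.18), none of which passed. Other probe sets turned these signs. Syt1 gave −0.70 and −0.04, Syt4 −0.74 and Syt11 −1.44 to 0.50, while the other probe sets of the complexins gave 0.07, 0.05 and 1.07. All DAP12KO arrays stem from year 4, so the UT arrays of that year set these differences. Within UT, 24 of the 27 members had a higher mean in year 4 than in year 3. Neuron markers were lower in DAP12KO arrays for most genes (15 of 20, median −0.51), and 5 of 5 border macrophage markers were lower (median −1.84). Their part was not tested.

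Stx1a gave the 1 unadjusted call. It read 2.28, 2.28, 10.31 and 2.65 on DAP12KO replicates 1, 2, 4 and 5, against a lowest value of 6.96, a median of 8.82 and a highest of 9.71 in UT arrays. Of the DAP12KO arrays, 3 were thus at or close to the floor and replicate 4 was the highest of both groups. The difference was −4.17 ± 1.44 (adjusted p = 0.79), and without DAP12KO replicate 4 it was −6.14 (adjusted p = 0.018). The second probe set of Stx1a was close to the floor in all groups, between 2.21 and 3.33. The probe set used is of a kind whose probes can match other transcripts, so the source of its signal is uncertain. DAP12KO replicate 4 also had the highest value of the 18 arrays in Syt11 (12.35), Sv2a (8.41) and Homer1 (10.15).

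The response to LPS and the effect of the DAP12 mutation, which share no control arrays, were set against each other in the same fit. No member differed between them after adjustment, and neither did any gene (0%). At an unadjusted p under 0.05 in limma, 7 members differed (25.9%), against 8.11% of all tested genes, namely Cplx2, Pclo, Snap91, Gria4, Gabra4, Chrna7 and Nlgn3. In Pclo, Gria4 and Gabra4 all 6 UT arrays were near the floor, and in Chrna7 and Nlgn3 5 of 6. DAP12KO arrays could thus hardly read lower than UT arrays in these genes. Since Pclo, Gria4 and Gabra4 also had to be higher on PBS arrays, the direction of their contrast was set. In Chrna7 and Nlgn3 the floor limited only the DAP12KO part of the contrast (−0.14 in each). Among the 24 members that passed the filter with any 1 group left out, 4 differed (16.7%), against 7.4% of such genes. These 4 were Cplx2, Snap91, Chrna7 and Nlgn3, and for the last pair DAP12KO minus UT was limited by the floor as above. The share is thus no clean measure of the members. In Chrna7 the difference of the responses was −2.66 ± 0.61 (adjusted p = 0.45), and in Gabra4 −2.60 ± 0.68 (adjusted p = 0.48).

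Of 101 further synaptic genes written down by name, 58 were tested, and LPS minus PBS had a median of −0.27, with 38 below 0 (65.5%, against 57.5% of all tested genes) and 20 above. At an unadjusted p under 0.05, 11 were lower and 2 higher (19.0% and 3.45%, against 8.98% and 3.47% of all tested genes), and none passed after adjustment in limma. The 11 include Amph, which passed the filter only through the PBS arrays and so had to be higher there. Whether others of the 11 did so is not given here. Within years the median of the 58 was 0.01 in year 1, −1.18 in year 2 and 0.00 in year 4. The lowest p belonged to Dlgap1, a scaffold that binds PSD-95, at 2.92, 2.32, 2.47 and 2.19 with LPS, against 3.06, 6.81, 6.00 and 4.11 with PBS (−2.52 ± 0.58, adjusted p = 0.12). Homer2, a relative of Homer1, read 3.51, 3.77, 3.94 and 3.51 with LPS, against 7.01, 7.35, 7.99 and 3.51 with PBS (−2.78 ± 0.65, adjusted p = 0.12). Both had the LPS arrays near the same value in all years. Amph, which helps retrieve vesicle membrane, differed by −2.47 ± 0.63 and the vesicle GTPase Rab3c by −1.78 ± 0.62 (adjusted p = 0.15 and 0.26). Without the PBS arrays of year 2 the differences were −1.03 in Dlgap1, −1.75 in Homer2 and −0.81 in Rab3c, and with the mean of all probe sets of a gene −0.60, −1.75 and −1.04.

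In the DAP12KO comparison 36 of the 58 were below 0 (62.1%, against 47.5% of all tested genes) and 18 above, with a median of −0.16. Gabbr1, a GABA-B receptor subunit, read 8.07, 9.98, 9.79 and 9.27 in DAP12KO arrays (replicates 1, 2, 4, 5), against 9.92 to 11.79 in UT arrays, a difference of −2.0 ± 0.48 (adjusted p = 0.49). Syt7, a slow calcium sensor, read 2.65 to 3.03 in DAP12KO arrays, against 2.93 to 9.13 in UT arrays (−4.53 ± 1.10, adjusted p = 0.49). The vesicle SNARE Vamp1 differed by −1.59 ± 0.59 and Nsf, the ATPase that takes SNARE complexes apart, by 1.52 ± 0.59, neither past the threshold (adjusted p = 0.82 and 0.85). With the mean of all probe sets of a gene the differences were −0.94 in Syt7, −1.01 in Gabbr1 and −0.86 in Vamp1.

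The members' other probe sets bear on how firm a single reading is. Of the 27 tested members, 18 had 29 further probe sets past the filter when each was fitted on its own. In the LPS comparison 26 of the 29 had the sign of the probe set used, and in the DAP12KO comparison 14 of 29. The share over all genes is not given here. A Syt1 and a Gria4 probe set among the 29 averaged 3.64 and 3.59 on PBS arrays. They passed the filter only through these, so their sign with LPS was set. For Cplx2 the others read −1.66 and −2.56, chiefly through year 2 (−3.03 and −5.01). They gave −0.62 and 0.03 in year 1, and 0.01 and −0.23 in year 4. For Syt11, used at −1.14, the others lay between −1.39 and −2.40. Vamp2 differed more in its dimmer probe set (−0.79) than in the one used (−0.11), though the dimmer one was higher with LPS in year 4 (1.43). Grin2b likewise gave −1.33 against −0.12, but its dimmer probe set was near the floor on 12 of the 18 arrays. Camk2a was positive in all 3 of its probe sets past the filter (1.22, 1.01 and 0.55).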

How the data were processed

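The deposited values are the authors' log2 expression of 45101 probe sets on Affymetrix mouse arrays, 18 in all, hybridized with RNA amplified and biotinylated with Ovation Pico WTA v2 and Encore kits, per the labels' protocols. The submitters' processing notes name RMA, which corrects background, normalizes arrays and sums up probes, and its version and whether it was run on all arrays at once are not stated. The values were used as deposited, with no further normalization. After normalization between arrays, a larger share of one cell type's RNA lowers the readings of the others. All arrays share a lowest value of 2.19, below which no difference can be read, and 32.7% to 38.2% of an array's probe sets stand there.

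Of the probe sets, 34958 named 1 gene, 932 several and 9211 none, and only the first were used. A gene was read from its brightest probe set by mean, and genes under the 40th percentile of probe set means (2.49) were left out. Levels of different probe sets were not compared. A single limma fit (version 3.58.1, R 4.3.3) over the 18 arrays held a mean for each group and a term for the label year, with 11 residual degrees of freedom and an intensity trend in the variance prior. Its two-sided p-values were adjusted by the Benjamini-Hochberg method over 11630 genes, with a threshold of 0.05. Differences carry standard errors from the fit, and means carry standard deviations over arrays. The fit was tested on simulated data. The number of arrays limits the precision. Alternatives covered the year term, the groups fitted, the filter, the probe sets, centring, the floor, array weights, the variance prior, a replicate block and arrays left out. The members, the marker lists and the other synaptic genes were chosen with earlier results of these data known. All members were named, with Tyrobp and, of the other synaptic genes, the 4 with the lowest p in each comparison, since none passed. Matplotlib 3.10.9 under Python 3.11.15 drew the figures.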

Additional observations from a re-analysis of the deposited data

Results flagged for a closer look

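Of 151 groups of values (a gene or a marker list in 1 group of arrays) examined for an array far from the rest, 13 held one, where chance marks about 1 group in 20. That rate does not hold where the other arrays are tied near the floor, as in Unc13a with LPS and Gria4 in DAP12KO. The 13 are thus not read as an excess. Of the 13, 7 were on DAP12KO arrays. DAP12KO replicate 4 read 10.31 in Stx1a, where the other DAP12KO arrays read 2.28 to 2.65, and 8.35 in Snap25, where they read 9.45 to 9.56. DAP12KO replicate 5 read 8.01 in Syt1, against 2.19 to 2.53 on the others. Replicate 2 read 3.16 in Gria1 (others 2.53 to 2.61), 2.61 in Gria4 (others 2.19) and 2.67 in the mean of the oligodendrocyte lineage markers Pdgfra and Olig1 (others 2.19 to 2.22), and replicate 1 read 2.67 in Pclo (others 2.19 to 2.27).

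Among LPS arrays, replicate 2 of year 2 read 4.06 in Chrna7 (others 2.35 to 2.43), and the array of year 1 read 3.61 in Unc13a (others 2.28) and 2.99 in Nlgn1 (others 4.67 to 4.84). The PBS array of year 1 read 6.10 in Rab3a, against 9.84 to 10.61 on the other PBS arrays. UT replicate 1 of year 4 read 3.86 in Nlgn3 (others 2.22 to 2.32), and UT replicate 3 of year 4 read 2.82 in Chrna7 (others 2.24 to 2.41).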

How the results depend on the processing

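The median difference of the members stayed negative under all alternatives that were run, between −0.80 (without the 2 PBS arrays of year 2 or without all 4 arrays of year 2) and −1.79 (array weights) for LPS minus PBS, and between −0.09 and −0.53 for DAP12KO minus UT. With 1 array left out in turn these medians were −1.83 to −1.23 and −0.42 to −0.02. The 1 member past the threshold with LPS became 0 with no year term, with only the LPS and PBS arrays, with no filter, with the filter at the 60th percentile (which removed Chrna7), without the 2 PBS arrays of year 2, without the 4 arrays of year 2 and with the year 2 arrays of a group averaged, and 7 with array weights. With 1 array left out it was 0 to 3 (3 without the LPS or PBS array of year 1 or of year 4). In the DAP12KO comparison 0 to 1 members passed with 1 array left out (Stx1a without DAP12KO replicate 4), and for the difference of the responses 0 to 1 (without either year 4 array of LPS or PBS). The genes past the threshold with LPS numbered 0 to 826 over the settings, 826 with array weights. Members at an unadjusted p under 0.05 with LPS (8 as reported) numbered 2 to 18, with 2 under the filter at the 60th percentile, 3 without the PBS or all arrays of year 2, 5 with no year term, 14 with the LPS and PBS arrays alone or the mean of all probe sets of a gene, and 18 with array weights. The share of all genes at that p in each of these settings is not given here, so the counts cannot be read against a background. Keeping only genes that pass the filter with any 1 group left out, chosen after seeing the data, gave 5 such members, 0 past the threshold (Chrna7 at an adjusted p of 0.080) and medians of −1.22 and −0.44. The causes were not tested.

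With label year and number as a random replicate block (consensus correlation 0.087), 2 members passed with LPS, Chrna7 and Gabra4 (−2.66, adjusted p = 0.040), and 0 in the other comparisons, with medians of −1.51 and −0.28. The share of all genes that passed with the block is not given here. Arrays of the same number in year 2 deviated alike (Pearson r = 0.53 over genes), those of DAP12KO and UT did not (−0.01 and 0.01). Only 2 numbers are shared in each comparison, so the numbers were not taken as pairs. Whether the arrays of year 2 within a group are fully independent was not tested (r = 0.984 between the LPS pair and 0.980 between the PBS pair over probe sets).

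Some members whose differences did not pass changed sign. For LPS minus PBS without the PBS arrays of year 2, or without all arrays of year 2, Dlg4 was 0.81, Grin2b 1.29, Syn1 1.21, Syt4 1.19 and Vamp2 0.50, and with the year 2 arrays averaged they were 0.24, 0.35, 0.072, 0.084 and 0.093. Dlg4 was 0.029 with the mean of all probe sets and 0.037 with centred arrays, and Rab3a −0.18 with the mean of all probe sets and −0.93 with array weights. For DAP12KO minus UT, the mean of all probe sets gave Camk2a −0.11, Cplx2 0.31, Syt11 −0.066 and Vamp2 −0.17, the fit with no year term Camk2b 0.26 and Nlgn3 0.0016, and array weights Vamp2 −0.022. With 1 array left out, LPS minus PBS spanned −0.41 to 0.46 in Dlg4, −1.95 to 0.067 in Gria1, −1.05 to 0.27 in Grin2b, −1.08 to 0.60 in Rab3a, −1.14 to 0.067 in Syt4 and −0.34 to 0.19 in Vamp2. DAP12KO minus UT spanned −0.75 to 1.26 in Camk2a, −1.38 to 0.23 in Camk2b, −0.32 to 0.0038 in Cplx2, −0.067 to 0.098 in Gria4, −1.52 to 0.013 in Homer1, −0.31 to 0.26 in Nlgn3, −0.015 to 0.14 in Pclo, −1.19 to 0.088 in Snap25, −0.40 to 1.54 in Syt1, −0.16 to 1.31 in Syt11 and −0.42 to 0.40 in Vamp2. Signal near the floor limits what can be read for Pclo, Gria4, Gabra4, Chrna7 and Nlgn3. Testing each probe set on its own was chosen after seeing the data and left Chrna7 as the 1 member past the threshold.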
